A study of Mus musculus with 6 samples.

Results

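The hepatic growth hormone axis was followed through 10 genes in the livers of HFD-fed mice that received vehicle or esculetin, a coumarin derivative under study as a lipid-modifying drug candidate. The genes were Ghr, Jak2, Stat5a, Stat5b, Socs2, Cish, Igf1, Igfals, Bcl6 and Cux2, taken by their symbols from the 55357 genes of the deposited count table, and all 10 were found there. They were chosen for their place in the pathway, with earlier results of these data known. C57BL6/J wild-type male mice, 8 to 9 weeks of age, were gavaged daily for 7 days with 2.5% Tween-80 alone or with esculetin. All of them ate a control diet with 10% of kcal as fat for 4 days and a high-fat diet (HFD) with 60% of kcal as fat for the next 3 days. The sample names and the treatment protocol give 180 mg/kg/d of esculetin, whereas the treatment field gives 90 mg/kg/d, so the group is called the esculetin group without a dose. Each group has 3 libraries, and each library pools 2 mice, so that differences between mice within a library cannot be seen. No group without the HFD, and none of females, was analysed here.

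Growth hormone from the pituitary binds its receptor, GHR, on the hepatocyte and activates the receptor-bound kinase JAK2. JAK2 phosphorylates STAT5A and STAT5B, which enter the nucleus, switch on genes such as Igf1, Igfals, Socs2 and Cish, and hold Bcl6 down. In male mice and rats the hormone is secreted in pulses and hepatic STAT5 activity follows each pulse, whereas secretion in females is nearly continuous. The pattern of secretion sets many of the differences in gene expression between male and female liver. Serum growth hormone, STAT5 phosphorylation and STAT5 binding were not among the data analysed here, and neither was the hour at which each liver was taken.

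The 6 libraries held between 27957713 and 34920922 counts, and the esculetin libraries were all deeper than the vehicle libraries. A gene with 3 counts had a level of 0.0865 to 0.109 in CPM, the unit used below, which relates counts to library size after TMM normalization. Of all genes, 14433 passed the expression filter and entered edgeR's quasi-likelihood test between the groups. The call rule was that of the study, a fold change over 1.5 together with an unadjusted p-value under 0.05. Hepatocyte markers summed to between 83086 and 91244 CPM over the 6 libraries, and adipocyte markers to at most 0.119 CPM, with 2 of the 3 at 0 throughout. The summed markers of Kupffer cells, stellate cells and endothelial cells overlapped between the groups. All 6 Kupffer cell and macrophage markers had negative log2 fold changes, with none called. The groups did not overlap for Cd68 (9.16 ± 1.12 CPM with vehicle, 7.08 ± 0.295 CPM with esculetin) and Timd4 (8.89 ± 1.31 and 7.52 ± 0.338 CPM). Nor did they for the stellate cell marker Pdgfrb (5.82 ± 0.429 and 4.90 ± 0.908 CPM), or for 17.4% of all tested genes. The 4 lymphocyte markers summed to between 13.8 and 15.2 CPM in the vehicle group and between 11.4 and 12.9 CPM in the esculetin group. Most of that sum was Ptprc, a gene of all leukocytes, at 13.4 ± 0.705 CPM with vehicle and 10.9 ± 0.521 CPM with esculetin (SD, n = 3), which was not called. Cd79a, a B cell gene, was called higher with esculetin, at 0.384 ± 0.120 CPM beside 0.835 ± 0.418 CPM, while Nkg7 was at 0.421 and 0.423 CPM and Cd3e at 0.189 and 0.211 CPM. The part of these leukocyte values in the results below was not tested. In bulk liver, fewer cells of a type and less RNA per cell cannot be told apart. Libraries vehicle 3 and esculetin 3 (numbered as in the sample names, which does not pair them) stood apart from the others in Cish, and the results that rest on them are given with and without them.

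STAT5 dimers bind the palindrome TTCNNNGAA, which reads the same on both strands, and promoters were searched for it because the axis ends in STAT5 target genes. RefSeq promoter windows, running from 250 bases before to 50 bases after a transcription start, were at hand for 9 of the 10 genes, 16 windows in all, and none was listed for Socs2. The windows of Bcl6, Cish and Igfals held matches, and those of the other 6 genes did not. Of all 32851 windows in the RefSeq table (GRCm38.p6), 8.30% held at least 1 match, 0.457% at least 2 and 0.0335% at least 3. One Bcl6 window held 3 matches and the Cish window held 2, while 2 Igfals windows and another Bcl6 window held 1 each. The sequences are shown for Bcl6 and Cish, which varied widely between libraries of a group, and for Igfals, which varied little. They are printed from 5′ to 3′ on the strand of the gene, with the matches in capitals, and were placed in GRCm39 by exact match. A stretch is marked as within an annotated exon where any of its bases overlap such an exon.
Bcl6, chr16:23800103-23800211 on the minus strand, outside annotated exons: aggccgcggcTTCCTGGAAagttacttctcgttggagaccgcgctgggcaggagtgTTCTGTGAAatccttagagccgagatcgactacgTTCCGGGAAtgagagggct
Cish, chr9:107173848-107173876 on the plus strand, within an annotated exon: ccgcccagttTTCCTGGAAagttcttgga
Cish, chr9:107173859-107173887 on the plus strand, overlapping the sequence above: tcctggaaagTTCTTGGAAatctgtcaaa
Igfals, chr17:25097137-25097165 on the plus strand, outside annotated exons: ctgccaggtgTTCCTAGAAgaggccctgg
The first match printed for Bcl6 and the first for Cish have the same 9 letters. These matches are letters in a window, and no binding was measured.

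None of the 9 axis genes that passed the expression filter was called, where 3.13% of all tested genes were called (452 of 14433). Called genes were higher in the esculetin group for 1.37% of the tested genes and lower for 1.76%. Limma-voom called none of the 9 axis genes either, and DESeq2, which gave no p-value for Cish, called none of the other 8, while edgeR with no filter on low counts called 3, Bcl6, Cish and Socs2. None of the 9 had an unadjusted p-value under 0.05 in edgeR, a level reached by 1711 of the 14433 tested genes. None had an adjusted p-value under 0.05 in edgeR or limma-voom, or in DESeq2, where Cish has none. That adjusted level was reached in edgeR by 0.0416% of all tested genes (6 of 14433). Log2 fold changes were positive for 4 and negative for 5, with a median of -0.03 beside -0.0080 over all tested genes. The groups of 3 libraries did not overlap for 1 of the 9, Ghr, and for 17.4% of all tested genes.

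**Figure D1:**
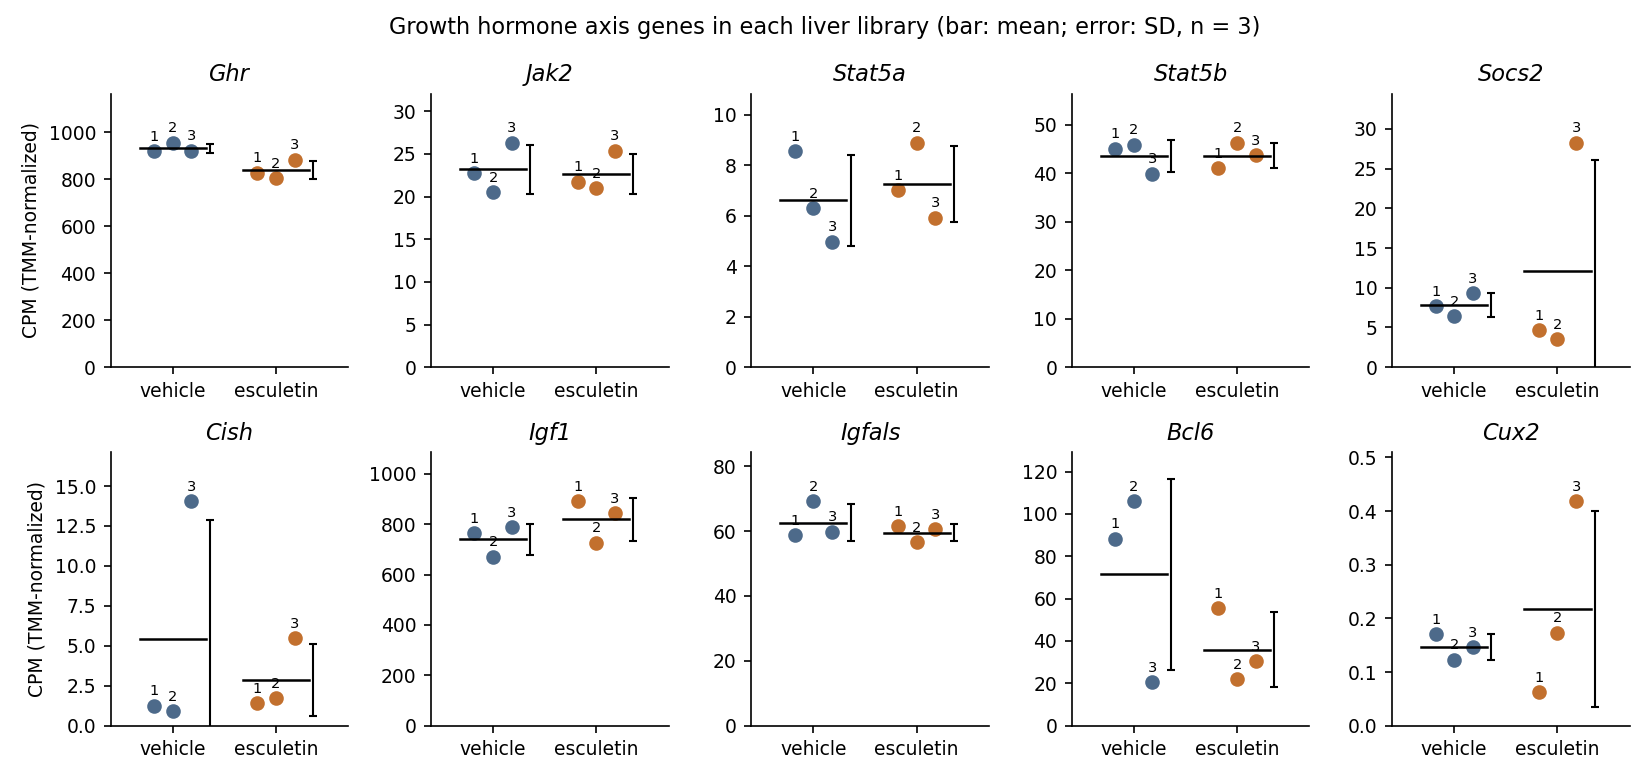
Each panel plots 1 gene, with the TMM-normalized CPM on the vertical axis, the group on the horizontal axis, a numbered point for each library, a line at the mean and an SD bar whose lower end is not drawn where it falls under 0. Ghr was lower in all 3 esculetin libraries, while Socs2, Cish and Bcl6 each had a group in which 1 library lay far from the other 2.

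Ghr encodes the receptor (GRCm39 chr15:3347235-3613024, the build of all positions given for genes below) and had the highest level of the 10 genes per length of exon in the vehicle group. Ghr was measured at 918, 954 and 921 CPM in the vehicle libraries and at 828, 805 and 882 CPM in the esculetin libraries. All esculetin libraries lay below all vehicle libraries, and within each group the highest library was at most 1.10 times the lowest. The log2 fold change of Ghr was -0.15 (SE 0.075, 95% interval -0.32 to 0.015), with a p-value of 0.0701 and an adjusted p-value of 0.464 in edgeR, and limma-voom gave an unadjusted p-value of 0.0466. An exact two-sided permutation test of the Ghr CPM gave p = 0.1, the smallest that 3 libraries against 3 allow. The interval does not reach a fold change of 1.5 in either direction. In each fit that left out 1 library the log2 fold change of Ghr stayed between -0.19 and -0.12.

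Jak2 (chr19:29228677-29290505), the kinase bound to the receptor, stood at 22.7, 20.5 and 26.3 CPM with vehicle and at 21.7, 21.0 and 25.4 CPM with esculetin. The groups overlapped fully, and the log2 fold change was -0.03 (SE 0.12, 95% interval -0.29 to 0.23).

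Stat5b (chr11:100671556-100741589) encodes STAT5B, and its RNA was the more abundant of the Stat5a and Stat5b pair in these livers. Stat5b measured 45.0, 45.9 and 39.9 CPM in vehicle libraries and 41.0, 46.3 and 43.7 CPM in esculetin libraries. Its log2 fold change was 0.0017 (SE 0.087, 95% interval -0.19 to 0.20). Stat5a (chr11:100750177-100776065), its close paralog on the same chromosome, measured 8.55, 6.29 and 4.96 CPM with vehicle and 7.00, 8.88 and 5.91 CPM with esculetin. The Stat5a groups overlapped, with a log2 fold change of 0.14 (SE 0.22, 95% interval -0.36 to 0.63), and the interval reached past a rise of 1.5-fold. Per kb of exon, Stat5b was between 6.22 and 9.59 times as high as Stat5a in every library. Reads that fit both paralogs can come from little of either gene, since 2.86% of the Stat5a and 2.0% of the Stat5b windows of 150 bases also occur in the other gene's transcripts. The 3′ end of Stat5a overlaps that of Stat3 on the opposite strand, and without stated strandedness the reads of that overlap cannot be assigned.

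Igf1 (chr10:87693642-87772904) encodes the secreted growth factor that the liver supplies to the circulation. Igf1 was measured at 764, 671 and 788 CPM in the vehicle libraries and at 891, 726 and 844 CPM in the esculetin libraries. The groups overlapped, with a log2 fold change of 0.15 (SE 0.10, 95% interval -0.077 to 0.37), a p-value of 0.173 and an adjusted p-value of 0.609 in edgeR. Igfals (chr17:25084971-25100984) encodes the acid-labile subunit that keeps IGF1 in a large complex in serum. Igfals stood at 58.7, 69.2 and 59.8 CPM with vehicle and at 61.5, 56.6 and 60.5 CPM with esculetin. Igfals had a log2 fold change of -0.07 (SE 0.086, 95% interval -0.26 to 0.12), and the groups overlapped. Per kb of exon, Igf1 was between 3.01 and 4.50 times as high as Igfals across the 6 libraries.

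Socs2 (chr10:95219523-95253929) encodes an inhibitor that STAT5 induces and that dampens signalling from the receptor. Socs2 was measured at 7.69, 6.41 and 9.34 CPM in the vehicle libraries (226, 209 and 256 counts) and at 4.63, 3.49 and 28.2 CPM in the esculetin libraries (149, 121 and 946 counts). Library esculetin 3 was the highest of all 6, and the other 2 esculetin libraries were the lowest. The exact Poisson 95% interval, which covers counting error only, was 887 to 1008 for the 946 counts and 100.4 to 145 for the 121 counts. Socs2 had a log2 fold change of 0.64 (SE 0.65, 95% interval -0.81 to 2.08), with an adjusted p-value of 0.749 in edgeR, and limma-voom on the same 6 libraries gave 0.0053. Without library esculetin 3 the sign turned, to a log2 fold change of -0.94 that passed the call rule with an unadjusted p-value of 0.00189 in edgeR. With vehicle 3 and esculetin 3 both left out it was -0.80, again called, at an unadjusted p-value of 0.00602 in edgeR.

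Cish (chr9:107173225-107179983) encodes another STAT5-induced inhibitor of the same family. Cish stood at 1.26, 0.890 and 14.0 CPM with vehicle (37, 29 and 385 counts) and at 1.40, 1.73 and 5.46 CPM with esculetin (45, 60 and 183 counts). Library 3 was the highest of each group, and the vehicle libraries spanned 15.8-fold and the esculetin libraries 3.91-fold. Of the 385 counts in library vehicle 3 the exact Poisson 95% interval was 347 to 425, and that of the 29 counts in vehicle 2 was 19.4 to 41.6. For Cish the log2 fold change was -0.90 (SE 0.91, 95% interval -2.93 to 1.13), with an adjusted p-value of 0.748 in edgeR, and limma-voom on the same 6 libraries gave 0.0059. Without library vehicle 3 the sign turned, and a log2 fold change of 1.42 passed the call rule with an unadjusted p-value of 0.0403 in edgeR. With vehicle 3 and esculetin 3 both left out it was 0.55 and was not called (unadjusted p-value of 0.192 in edgeR).

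Bcl6 (chr16:23783802-23807602) encodes a transcriptional repressor that STAT5 represses and that binds many of the same hepatic sites. Bcl6 was measured at 88.2, 106 and 20.4 CPM in the vehicle libraries (2590, 3451 and 560 counts) and at 55.6, 21.9 and 30.3 CPM in the esculetin libraries (1787, 758 and 1016 counts). Library vehicle 3 was the lowest of all 6, whereas the other 2 vehicle libraries were the highest. The log2 fold change of Bcl6 was -0.997 (SE 0.51, 95% interval -2.13 to 0.14), with a p-value of 0.0786 and an adjusted p-value of 0.481 in edgeR. Bcl6 passed the call rule without library vehicle 3 (log2 fold change of -1.43) and without library esculetin 1 (-1.46), and was not called in the 4 fits that left out another library, where it lay between -0.89 and -0.60. With vehicle 3 and esculetin 3 both left out it was -1.33, with an unadjusted p-value of 0.00433 in edgeR.

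Cux2 (chr5:121994429-122188521) encodes a repressor that is known from female liver. Its counts were 5, 4 and 4 in the vehicle libraries and 2, 6 and 14 in the esculetin libraries, 35 in all, and it did not pass the expression filter. The exact Poisson 95% interval of the highest count was 7.65 to 23.5 and that of the lowest 0.242 to 7.22, both of them in the esculetin group. In the fit with no filter on low counts the log2 fold change of Cux2 was 0.58, with an unadjusted p-value of 0.545 in edgeR.

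**Figure D2:**
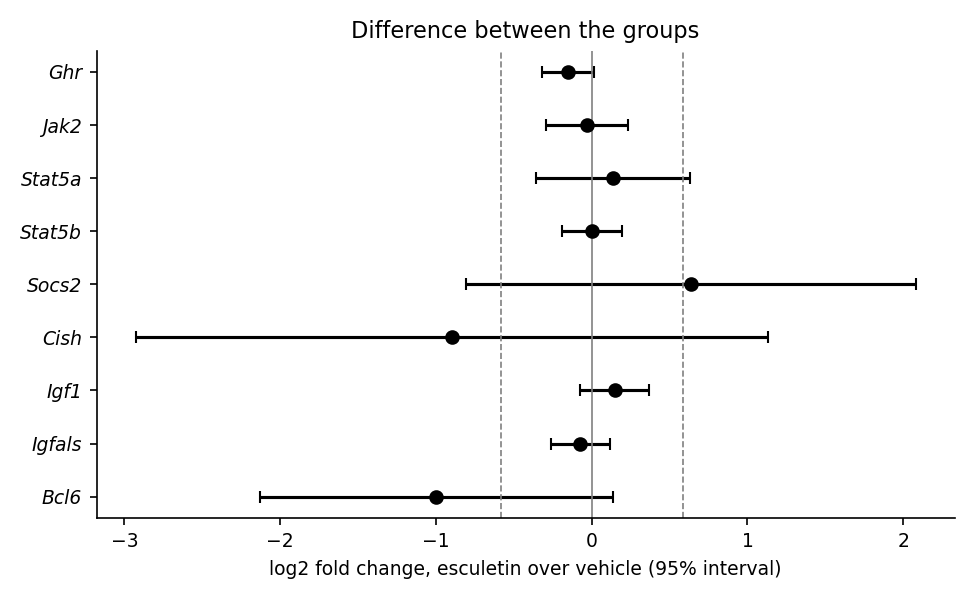
The log2 fold change of esculetin over vehicle is on the horizontal axis for the 9 genes tested, with the 95% interval from the edgeR fit as a bar and dashed lines at a fold change of 1.5. The intervals of Ghr, Jak2, Stat5b, Igf1 and Igfals lie within the dashed lines, that of Stat5a passes the upper line slightly, and those of Socs2, Cish and Bcl6 are the widest of the 9.

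The 9 genes fell apart by how much libraries of the same group differed. The pooled within-group SD of log2 CPM was 1.67 for Cish, 1.16 for Socs2 and 1.04 for Bcl6, beside a median of 0.186 and a 95th percentile of 0.703 over all tested genes. By this SD they stood at percentiles 99.9, 99.3 and 99.0 of all tested genes. Ghr had an SD of 0.053, at percentile 4.0, and Stat5b, Igfals, Igf1 and Jak2 lay between percentiles 20.8 and 44.0. Stat5a, with fewer counts, lay at percentile 75.7. The feedback inhibitors and Bcl6 varied widely, while the receptor, the kinase, the STATs and the secreted outputs varied less. The percentiles describe these 6 libraries and were not tested.

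**Figure D3:**
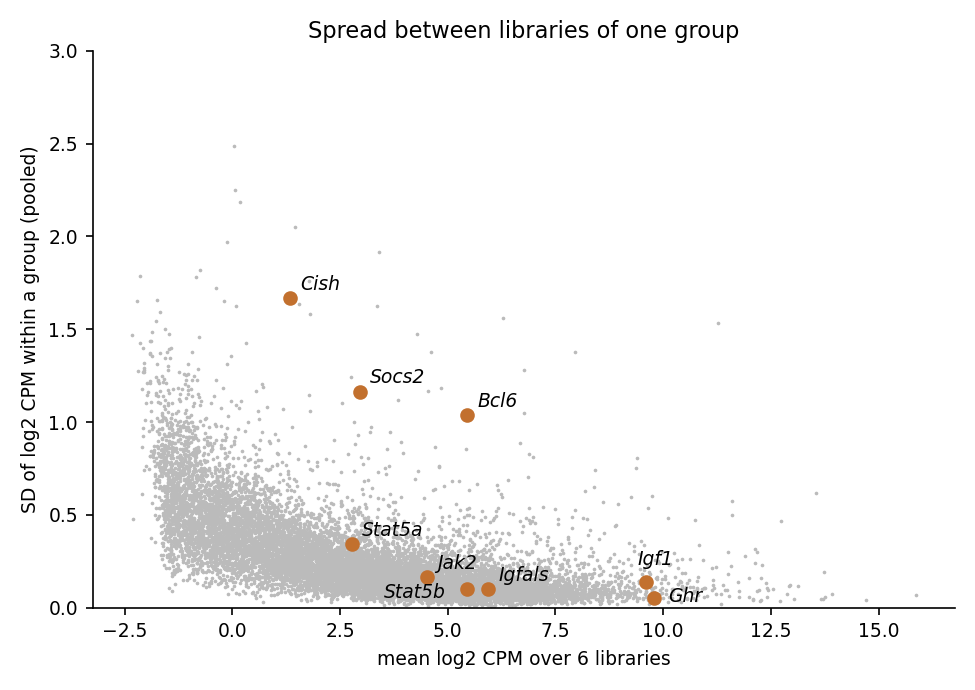
The pooled within-group SD of log2 CPM is plotted against the mean log2 CPM over the 6 libraries, with a grey point for each of the 14433 tested genes and a named point for each axis gene. Cish, Socs2 and Bcl6 lie above 0.703, the 95th percentile of all tested genes, while Ghr has the lowest SD of the 9.

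Read library by library, library vehicle 3 deviated by 2.48 (log2 CPM, from the mean of the 6 libraries) for Cish, by 0.27 for Socs2 and by -1.10 for Bcl6. Library esculetin 3 deviated by 1.13 for Cish, by 1.86 for Socs2 and by -0.53 for Bcl6. Both libraries had Cish and Socs2 above and Bcl6 below the mean, while Igf1 deviated by 0.02 and 0.12 and Igfals by -0.03 and -0.0099 in the same libraries. Jak2, at 0.20 and 0.15, was the highest of its group in both, and Stat5a, at -0.45 and -0.20, the lowest. The 3 genes are described because these libraries stood apart in them. Libraries vehicle 1 and vehicle 2 showed the opposite for Cish (-0.93 and -1.40) and Bcl6 (1.01 and 1.27). Library esculetin 1 had Cish at -0.79, Socs2 at -0.73 and Bcl6 at 0.34. Library esculetin 2 had all of them below the mean, with Bcl6 at -1.0, Cish at -0.49 and Socs2 at -1.13. Onecut1, which encodes HNF6, a partner of STAT5 in liver and a known responder to growth hormone, was looked at after its values were seen. Onecut1 counts were 45, 98 and 399 with vehicle and 44, 42 and 423 with esculetin, so library 3 was again the highest of each group. Ghr, Stat5b, Igf1 and Igfals deviated by no more than 0.21 in any library. Across all tested genes, the deviations of vehicle 3 and esculetin 3, here taken from the mean of their own group, had a correlation of 0.0027.

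**Figure D4:**
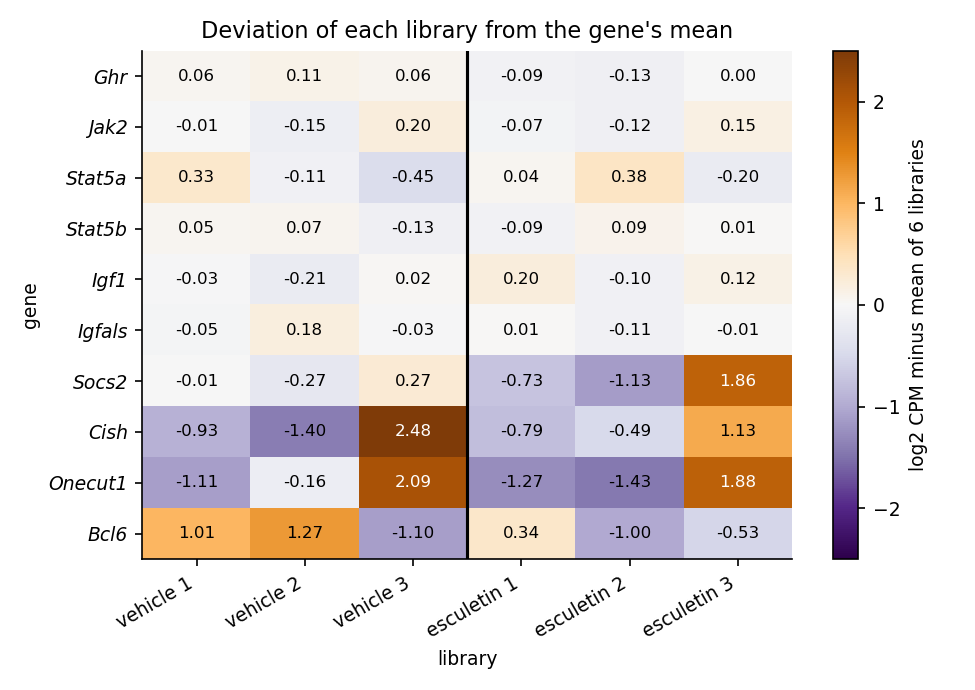
Rows are the 9 tested axis genes and Onecut1, columns are the 6 libraries, and colour and number give log2 CPM minus the mean of the gene over the 6 libraries. The columns of vehicle 3 and esculetin 3 hold the high values of Cish and Onecut1, and the high values of Bcl6 lie in the columns of vehicle 1 and vehicle 2.

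Per kb of merged exons the order in the vehicle group was Ghr at 92.2 ± 1.98 CPM per kb (SD, n = 3), Igf1 at 72.4 ± 6.04, Igfals at 19.7 ± 1.81, Bcl6 at 10.7 ± 6.73, Stat5b at 6.30 ± 0.471 and Jak2 at 3.66 ± 0.461. Cish at 0.841 ± 1.17, Stat5a at 0.799 ± 0.220 and Socs2 at 0.512 ± 0.0960 CPM per kb followed, and Cux2 was last at 0.0129 ± 0.00209. Neighbours whose libraries overlapped in the vehicle group were Bcl6 and Stat5b, Cish and Stat5a, and Stat5a and Socs2. In the esculetin group Ghr at 83.0 ± 3.92 CPM per kb and Igf1 at 80.2 ± 8.31 overlapped, which they did not in the vehicle group. Bcl6 followed Stat5b there, at 5.36 ± 2.62 beside 6.31 ± 0.382 CPM per kb, and overlapped both it and Jak2. Stat5a, Socs2 and Cish again overlapped, in that order. Merged exons count every annotated isoform, so the level of a gene with long rare isoforms is understated.

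Among 41 other genes of the pathway, 35 were tested, and 1 rose and 1 fell by the call rule, beside 3.13% called of all tested genes in either direction. The median log2 fold change of the list was -0.03. In edgeR 8 of the 35 had an unadjusted p-value under 0.05, beside 1711 of the 14433 tested genes. Irs1, the insulin and IGF1 receptor substrate, fell from 10.0 ± 1.52 CPM to 5.58 ± 0.561 CPM (SD, n = 3), with 10.7, 11.1 and 8.28 CPM in the vehicle libraries and 5.29, 6.23 and 5.23 CPM in the esculetin libraries. Its log2 fold change was -0.84 (SE 0.16), with an adjusted p-value of 0.132 in edgeR, and it was called in each of the 6 fits that left out 1 library. Igfbp6, an IGF-binding protein, rose from 1.40 ± 0.219 CPM to 2.61 ± 0.732 CPM, with a log2 fold change of 0.90 (SE 0.28) and an adjusted p-value of 0.258 in edgeR. With vehicle 3 and esculetin 3 both left out, Irs1 was called and Igfbp6, at a log2 fold change of 0.76, was not. The 8 tested IGF-binding proteins, proteases and inhibitors had log2 fold changes between -0.35 and 0.90, and 6 were positive. The 9 tested SOCS proteins and phosphatases lay between -0.55 and 0.03 on the log2 scale, with none called. The 14 kinases, adaptors and other STATs had a median of -0.03 with Irs1 alone called, and the 3 tested IGF ligand and receptor genes lay between -0.38 and 0.10.

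Of 11 transcription factors that work beside STAT5 in liver, all were tested and none was called in edgeR, beside 3.13% of all tested genes. DESeq2 called 1, Tox, named after its values were seen, beside 415 of all 14433 tested genes. In edgeR 2 had an unadjusted p-value under 0.05, beside 1711 of the 14433 tested genes. These were Trim24, a corepressor, with a log2 fold change of 0.36 (SE 0.12, adjusted p-value of 0.298 in edgeR), and Nr3c1, the glucocorticoid receptor, with -0.17 (SE 0.074, adjusted p-value of 0.399 in edgeR). The list had a median log2 fold change of -0.0087.

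Genes that differ between male and female liver depend in part on the growth hormone pattern, and their values stand here beside the axis. What moved these genes between the groups was not tested. Of 24 genes of higher expression in male liver, all tested, 10 fell and none rose, where 1.76% of all tested genes fell and 1.37% rose. The median log2 fold change of the list was -0.45. The number with an adjusted p-value under 0.05 was 0 in edgeR and limma-voom and 3 in DESeq2. Over all tested genes that number was 6 in edgeR, 5 in limma-voom and 193 in DESeq2. In edgeR with no filter on low counts 13 of the 24 reached that level, beside 477 of 24638 tested genes. Mup21, a major urinary protein, fell with a log2 fold change of -0.70 (SE 0.15), Serpina1e, a serine protease inhibitor, with -1.13 (SE 0.25), C6, a complement component, with -0.74 (SE 0.17), Elovl3, a fatty acid elongase, with -0.70 (SE 0.18), and Mup1, another urinary protein, with -0.92 (SE 0.28). Of 24 genes of higher expression in female liver 13 were tested, and 6 rose and none fell, beside the same shares over all tested genes. With limma-voom 6 were called higher and 1 lower, Cyp2c69, named after its values were seen. Cyp2a4, a steroid hydroxylase, had a log2 fold change of 4.69 (SE 0.61), from 0.217 CPM to 5.62 CPM, and was the only one with an adjusted p-value under 0.05 in edgeR, at 0.0498. The number of female-biased genes at that level was 5 in DESeq2 and 0 in limma-voom, so the adjusted call of Cyp2a4 was lost in limma-voom. In edgeR with no filter on low counts 6 of 23 female-biased genes reached that level. Fmo2, a flavin monooxygenase, had a log2 fold change of 0.83 (SE 0.17), and Cyp2b10 and Cyp2b9, cytochrome P450 enzymes, had 2.69 (SE 0.51) and 3.78 (SE 0.78). Cyp2a4 had 12, 2 and 5 counts in the vehicle libraries and 73, 218 and 278 counts in the esculetin libraries. With vehicle levels of Cyp2a4, Cyp2b9 and Cyp2b10 this close to 3 counts, their fitted fold changes can depend on the prior count, which was not varied. Female-biased genes that passed the filter only through the esculetin group had to be higher there, so their count and median describe the list and no more. With at least 10 counts required in every library, 8 were tested, 2 were called and the median log2 fold change was 0.47. Mup, Cyp2a, Cyp2b and Serpina1 genes have close paralogs, and reads of paralogs may have been split. With vehicle 3 and esculetin 3 both left out, 6 female-biased genes were called and 4 male-biased genes, Serpina1e, Elovl3, Cyp4a12a and Cyp4a12b, the last of which was not among the 10. Mup21 (log2 fold change of -0.53), C6 (-0.56) and Mup1 (-0.61) were then not called, and the male-biased median was -0.41. With vehicle 1 left out 10 female-biased genes were called, and with esculetin 2 left out 6 were called higher and 2 lower (Cyp2c40 and Cyp2c69).

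Of 12 genes of lipid uptake and storage that are known to rise in livers without growth hormone signalling, 10 were tested. None was called in edgeR, beside 3.13% of all tested genes. In edgeR 2 had an unadjusted p-value under 0.05, beside 1711 of the 14433 tested genes. DESeq2 and limma-voom each called 1, Vldlr, also named after its values were seen, beside 415 and 441 of all tested genes. The smallest p-values belonged to Lpl, lipoprotein lipase, with a log2 fold change of -0.50 (SE 0.15, adjusted p-value of 0.246 in edgeR), and Plin4, a lipid droplet protein, with 0.52 (SE 0.21, adjusted p-value of 0.365 in edgeR). The median of the list was -0.02.

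**Figure D5:**
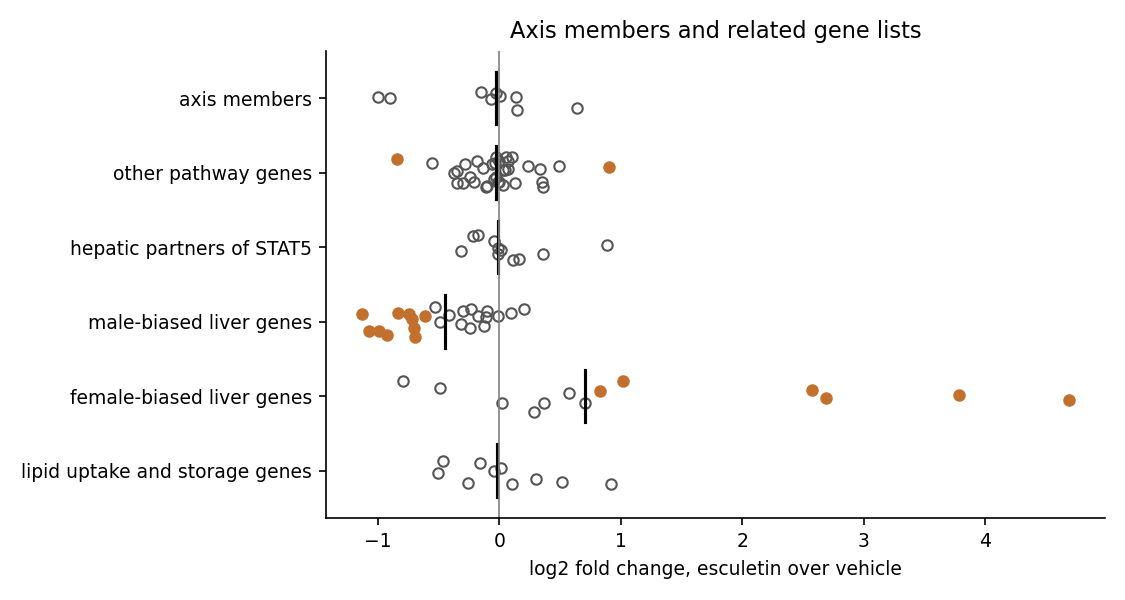
The log2 fold change of esculetin over vehicle is on the horizontal axis for every tested gene of the axis and of 5 related lists, with called genes as filled points, other genes as open points and the list median as a bar. The axis members centre at -0.03 with none called, male-biased genes at -0.45 with 10 called lower, and female-biased genes at 0.70 with 6 called higher, some of which passed the expression filter only through the esculetin group (with at least 10 counts in every library, 0.47 and 2 called).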

How the data were processed

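Liver RNA from 3 vehicle and 3 esculetin libraries was prepared with a NEBNext Ultra kit and sequenced as paired reads. The authors aligned the reads with HISAT2 2.2.1 to GRCm39, obtained gene counts with featureCounts, and the deposited values are whole-number counts without normalization. The submitters' processing notes also list mm10. The annotation release, strandedness and treatment of multi-mapping reads are not given in the sources used here. The pooling of 2 mice in each library comes from the supplement of the study, and p-values measure the spread between these pools.

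Symbols and coordinates were taken from GENCODE vM39, which named 54749 of the 55357 identifiers. Genes were filtered with filterByExpr, normalized with TMM and tested by quasi-likelihood in edgeR 4.0.16 (R 4.3.3), with Benjamini-Hochberg adjustment. The SE was taken as the size of the log2 fold change over the root of the F statistic. Log2 CPM used a prior count of 2. Poisson intervals cover counting error only. No library was a copy of another.

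The members and lists were chosen with earlier results of these data known. All 10 axis genes are named. Of each other list, the called genes are named, at most 5 with the smallest p-values in each direction, or the 2 with the smallest p-values where fewer than 2 were called. One gene that this rule names is not reported here. Other tools tried were limma-voom (limma 3.58.1) and DESeq2 1.42.0. Other settings were scaling by DESeq2 size factors or by total counts, a minimum of 10 counts in every library or no filter, no fold threshold, the replicate number as a block, and each library left out. Leaving out vehicle 3 and esculetin 3 together was added after seeing the data. One hepatocyte marker symbol of 7 matched no gene.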

Additional observations from a re-analysis of the deposited data

How the results depend on the processing

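Ghr, Igf1 and Bcl6 kept their direction in all 14 alternatives. The number of genes called was 452, and 776 with no filter on low counts, 1711 with no fold threshold, and 411 to 588 with 1 library left out. Adjusted p-values fell under 0.05 for 6 genes in edgeR, 193 in DESeq2, 5 in limma-voom, 477 with no filter, 15 with the block, 23 without vehicle 3 and esculetin 3, and 2 to 45 with 1 library left out (2 without vehicle 2, 45 without vehicle 1). The number of axis genes called was 0, but 3 with no filter (Bcl6, Cish and Socs2, of which Bcl6 alone, 1 gene, had an adjusted p-value under 0.05, 6.09e-05 in edgeR), 0 to 2 with 1 library left out (2 without vehicle 3, 1 without esculetin 1 or esculetin 3), and 2 (Bcl6 and Socs2) with vehicle 3 and esculetin 3 both left out. Cish turned from -0.90 to 0.0059 with limma-voom, 1.42 without vehicle replicate 3 and 0.55 without vehicle 3 and esculetin 3, and Socs2 moved from 0.64 to 0.0053 with limma-voom and turned to -0.94 without esculetin replicate 3 and -0.80 without vehicle 3 and esculetin 3. With 1 library left out, Cish ranged from -1.76 to 1.42, Socs2 from -0.94 to 1.08, Jak2 from -0.12 to 0.071, Igfals from -0.12 to 0.0090, Stat5a from -0.033 to 0.37 and Stat5b from -0.057 to 0.046. Stat5b also changed sign with total counts (-0.022), with at least 10 counts in every library (-0.0011) and without vehicle 3 and esculetin 3 (-0.058), all near 0.

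Of the other pathway genes 2 were called, 8 with no fold threshold, 1 without vehicle 3 and esculetin 3, and 2 to 4 with 1 library left out (4 without vehicle 1). Of the partners of STAT5 0 were called, 1 with DESeq2, with no filter and with the block, 2 with no fold threshold, and 0 to 1 with 1 library left out (1 without vehicle 1, esculetin 2 or esculetin 3). Of the lipid genes 0 were called, 1 with DESeq2, limma-voom, no filter or without vehicle 3 and esculetin 3, 2 with no fold threshold and 0 to 2 with 1 library left out (2 without vehicle 1 or esculetin 3, 1 without esculetin 1 or esculetin 2). Of the female-biased genes 6 were called, 2 with at least 10 counts in every library and 5 to 10 with 1 library left out (10 without vehicle 1). Of the male-biased genes 10 were called, and 4 without vehicle 3 and esculetin 3. The cause of these moves was not tested.

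With the replicate number as a replicate block, 399 genes and 0 axis genes were called, with log2 fold changes of -0.80 for Bcl6, -0.27 for Cish and 0.042 for Socs2. Over all tested genes, the correlations between libraries of equal number, taken on deviations within each group, were -0.069, -0.011 and 0.0027. A factor that acts on few genes would hardly move these correlations. Whether libraries of equal number share more than that number was therefore not tested. Besides the partners of STAT5 no list count moved by over 1.5 times under the block. The precision for Bcl6, Socs2 and Cish is limited by 3 libraries per group that differed widely in these genes, with an SE of 0.51, 0.65 and 0.91 on the log2 scale. With the same number of libraries the SE of Ghr was 0.075.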
